A study of Cladosporium europaeum with 50 samples.

Results

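The transcriptional response of the soil fungus Cladosporium europaeum to PCB180, a heptachlorobiphenyl, after 96 h was described across gene functions. The members are all genes that the authors listed for mycelium with PCB180 against the control of the same hour, 821 genes of 920 listed in the whole series. They are 7.26% of the 11313 genes behind the authors' adjustment of p, with 4.59% that rose and 2.67% that fell. The study grew strain F32, isolated where soil had long held polychlorinated biphenyls (PCB), in liquid mineral medium with glucose and sequenced polyadenylated RNA of the mycelium in 50 samples. Groups compared here were mycelium with PCB180 at 6 mg/L and mycelium with no PCB, each with 5 g/L glucose, harvested at 96 h, with 5 replicates each labelled A to E. The labels do not say whether replicates were separate cultures, so p-values here measure spread between samples, which may not be spread between cultures. Whether the authors' fit also drew on samples of other groups is not given in the sources used here. In each comparison of a congener with control, a gene was listed at an adjusted p below 0.05 with a change of 2-fold or more, which is 1 on the log2 scale. The words "rose" and "fell" are kept for genes listed in this way. Values per sample were not used here and depth is unknown, so each gene is given by the authors' log2 fold change of PCB180 over control ± its standard error. In RNA from whole mycelium, a change in the makeup of the cells and a change in RNA per cell cannot be told apart.

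PCBs are biphenyls that carry chlorine atoms and resist breakdown, and they dissolve in lipid far better than in water. Soil fungi can oxidise aromatic compounds with cytochrome P450 enzymes and other monooxygenases, open the rings of catechol-type products with dioxygenases, and conjugate products to glutathione or to methyl and acetyl groups. They also draw carbon from plant polymers such as pectin and adjust membranes, transport and nutrient signalling to their surroundings.

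Of the 821 genes, 519 rose and 302 fell. The rises were the larger changes. The median log2 fold change was 1.59 among genes that rose, a 3.01-fold change, and -1.27 among genes that fell, a 2.41-fold change. A change of at least 4-fold was listed for 129 genes that rose and 15 that fell, and one of at least 8-fold for 14 and 0. Genes that rose also had lower counts, with a median mean normalized count of 143 against 527 for genes that fell. This count is pooled over all samples of the series and is not a level in the groups compared here. Among the 206 listed genes with the lowest counts, from 10.2 to 73.1, 87.9% rose at a median standard error of 0.484. Of the 205 with the highest counts 48.3% rose, at a median standard error of 0.388. The part of counting error in this pattern was not tested. An annotation was given for 68.2% of the genes that rose and 88.1% of those that fell, and 165 genes without one rose against 36 that fell. Those with the largest changes were ptg000016l.447, which rose by 3.62 ± 0.79, and ptg000018l.480, which fell by 2.63 ± 0.72 (log2 scale) in the authors' deposited table.

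**Figure D1:**
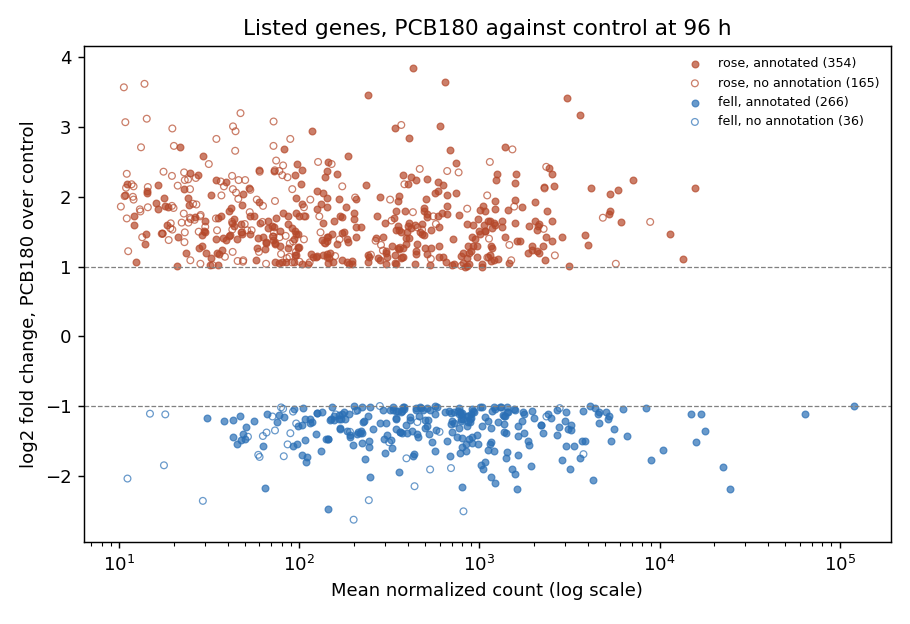
Log2 fold change of PCB180 over control at 96 h (vertical) against the mean normalized count on a log scale (horizontal), 1 point per listed gene, filled where annotated and open where not; dashed lines mark the fold threshold. Low counts hold mostly rises, with 181 of the 206 genes of lowest count, while the 205 of highest count hold 99 rises and 106 falls.

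Annotations placed 539 genes in 35 functional classes. Class members that were not listed are not in the rows used here, so the counts describe listed genes only. The median log2 fold change over all listed genes was 1.23. Of all listed genes 63.2% rose, and of those with an annotation 57.1%. A class whose share that rose lies near these is not set apart by its direction. Nearest the threshold were a HET-domain gene (ptg000035l.130) at 1.0 ± 0.34 and an FAD/NAD(P)-binding domain gene (ptg000018l.344) at -1.0 ± 0.35 in the authors' deposited table, and genes just outside it are not in the rows used here. No listed gene lies between -1 and 1, and in 20 of 37 sets (the 35 classes, unplaced genes and genes without annotation) the median changed sign under some alternative setting. The counts per direction are given first, but their majority can change with the setting too. For amino acid and one-carbon genes, 16 rose and 6 fell by hand sorting, against 10 and 12 in a list of annotation words.

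**Figure D2:**
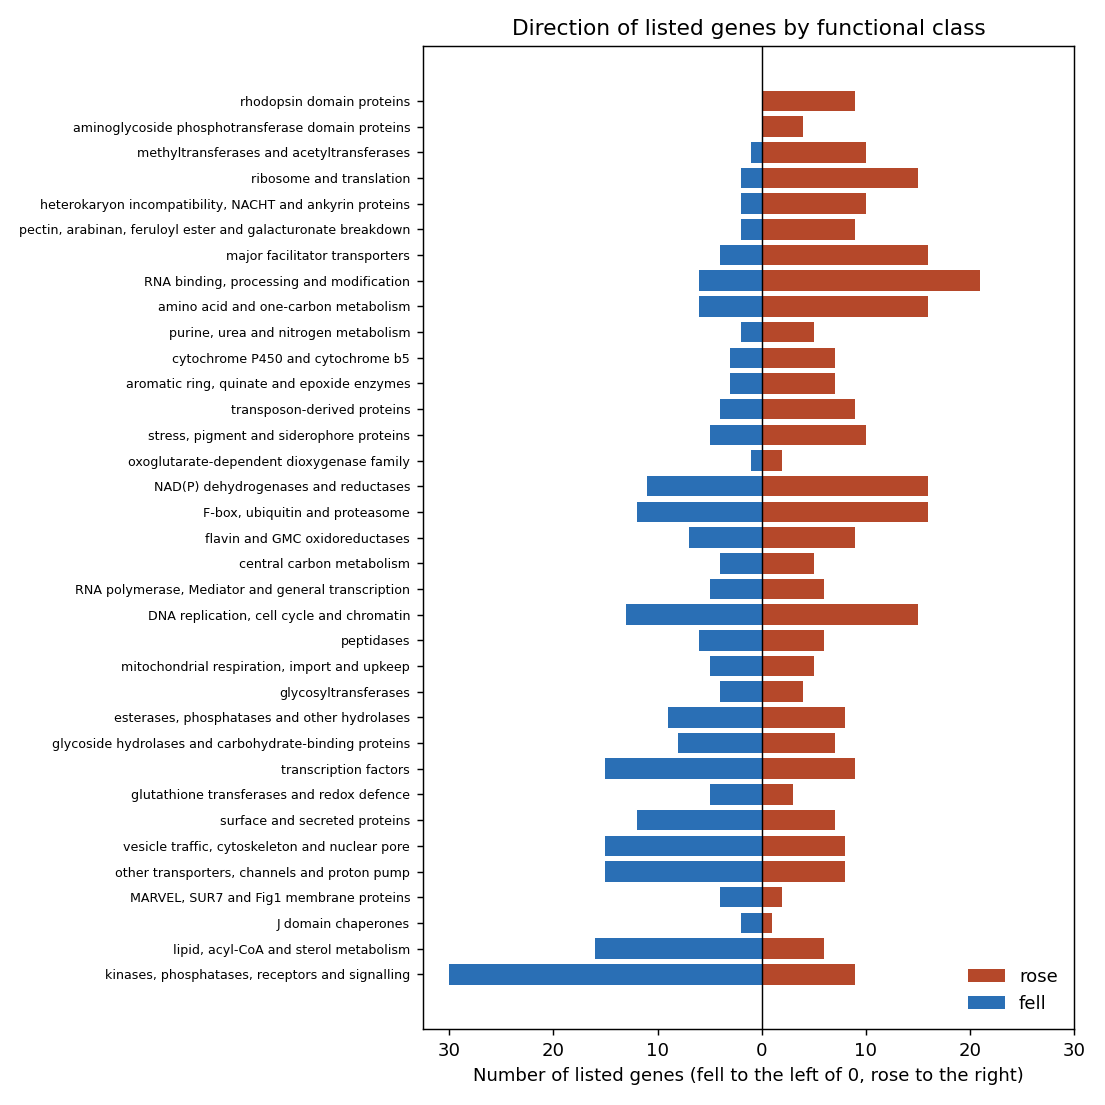
Number of listed genes that rose (right of 0) and fell (left of 0) in each of 35 functional classes, ordered by the share that rose. All 9 rhodopsin domain genes rose and 15 of 17 ribosome and translation genes rose, while 30 of 39 signalling genes and 16 of 22 lipid genes fell.

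The genes for enzymes on aromatic rings, quinate and epoxides numbered 10, of which 7 rose and 3 fell, with a median of 1.62. Catabolic 3-dehydroquinase (ptg000008l.233), which acts in the breakdown of quinate, rose by 3.65 ± 0.83 in the authors' deposited table, with an adjusted p of 0.000884. Phenol 2-monooxygenase (ptg000007l.259), which hydroxylates phenol to catechol, rose by 2.33 ± 0.53, and an intradiol ring-cleavage dioxygenase (ptg000021l.252), which opens catechol rings, by 2.14 ± 0.75 in the authors' deposited table. A carboxymuconolactone decarboxylase-like gene (ptg000015l.273), from the family of enzymes downstream of ring opening, rose by 1.47 ± 0.41 (log2 scale) in the authors' deposited table. Genes for epoxide hydrolases, which add water to reactive epoxides, rose by 2.31 ± 0.34 (ptg000010l.624) and 1.42 ± 0.47 (ptg000021l.294) in the authors' deposited table. The largest fall of this class was a gene with a 2,6-dihydroxypyridine 3-monooxygenase domain (ptg000002l.374), at -1.48 ± 0.32 under PCB180 and -1.03 under PCB153 in the authors' deposited table, with an adjusted p of 0.000386 under PCB180. A dienelactone hydrolase domain gene (ptg000005l.846) fell by 1.07 ± 0.25 and 6-methylsalicylate decarboxylase (ptg000017l.188) fell by 1.0 ± 0.33 (log2 scale) in the authors' deposited table. The dienelactone hydrolase and decarboxylase genes were chosen after their values were seen.

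The genes of cytochrome P450 enzymes, cytochrome b5 proteins and a cytochrome b5 reductase did not all move one way, with 7 that rose and 3 that fell. Those of P450 enzymes alone included 5 that rose and 2 that fell. A P450 monooxygenase (ptg000010l.658) rose by 2.18 ± 0.59 and benzoate 4-monooxygenase (ptg000027l.308), which hydroxylates benzoate, by 1.43 ± 0.29 in the authors' deposited table. Genes with a cytochrome b5 domain, a carrier of electrons to such enzymes, rose by 2.32 ± 0.65 (ptg000019l.135) and 1.65 ± 0.56 (ptg000008l.474) in the authors' deposited table. Another P450 gene (ptg000018l.79) fell by 2.02 ± 0.48 (log2 scale) in the authors' deposited table. It stands in a run of 3 consecutive gene numbers that all fell, with NADH-cytochrome b5 reductase (ptg000018l.78), at -2.02 ± 0.45, and a 3-hydroxyacyl-CoA dehydrogenase (ptg000018l.77), at -1.27 ± 0.35 in the authors' deposited table. A further P450 gene (ptg000019l.531, -1.42 ± 0.37) fell together with its neighbour, a glutathione transferase domain gene (ptg000019l.530, -1.76 ± 0.26) in the authors' deposited table. Glutathione transferases join glutathione to reactive compounds. Of the 5 listed, 4 fell and 1 (ptg000018l.403) rose, by 2.29 ± 0.61 (log2 scale) in the authors' deposited table. A catalase domain gene (ptg000019l.156), of the enzymes that break down hydrogen peroxide, rose by 1.77 ± 0.56 (log2 scale) in the authors' deposited table. A thioredoxin domain gene (ptg000002l.457) fell by 1.4 ± 0.3 (log2 scale) in the authors' deposited table. Genes of glutathione transferases and redox defence together included 3 that rose and 5 that fell.

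Genes of methyl and acetyl transfer mostly rose. Of 11 methyltransferase and acetyltransferase genes, 10 rose, with a median of 1.47. A list of annotation words that also took in glycosyl, sulfo and acyl transfer gave 13 that rose and 5 that fell. An N-acetyltransferase domain gene (ptg000009l.300) rose by 2.85 ± 0.75 and a methyltransferase domain gene (ptg000008l.634) by 1.83 ± 0.37, while an O-methyltransferase (ptg000005l.141) fell by 1.5 ± 0.45 (log2 scale) in the authors' deposited table. Each of the 4 listed genes with an aminoglycoside phosphotransferase domain rose, by 1.19 to 2.17, at mean normalized counts of 14.2 to 30.4 in the authors' deposited table. Flavin and GMC oxidoreductases were divided, 9 against 7, as were NAD(P) dehydrogenases and reductases, 16 against 11.

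The genes of pectin, arabinan and galacturonate breakdown included 9 that rose and 2 that fell, with a median of 1.11. Pectin is a plant polymer of galacturonate, which fungi release with secreted enzymes and break down inside the cell. Endo-polygalacturonase (ptg000015l.518), which cuts the chain, rose by 3.18 ± 0.67 in the authors' deposited table, with an adjusted p of 0.000312. Galacturonidases, which take sugar acids off chain ends, rose by 2.0 ± 0.53 (ptg000005l.788) and 1.30 ± 0.34 (ptg000005l.409), and pectate lyase (ptg000009l.838) rose by 1.46 ± 0.47 (log2 scale) in the authors' deposited table. Enzymes of the galacturonate pathway inside the cell were listed too. L-galactonate dehydratase (ptg000017l.227) rose by 1.05 ± 0.17, at an adjusted p of 1.61e-07, and L-threo-3-deoxy-hexylosonate aldolase (ptg000009l.425), which splits the product of that dehydratase, by 1.08 ± 0.34 in the authors' deposited table. An alpha-L-rhamnosidase domain gene (ptg000005l.602, -1.18 ± 0.40) and an arabinan endo-arabinosidase (ptg000008l.600, -1.02 ± 0.36) fell in the authors' deposited table. The arabinosidase was chosen after its value was seen. Glycoside hydrolases outside this class included 7 that rose and 8 that fell, against 4 and 10 in a list of annotation words and 4 and 8 without the lowest counts. Among the falls was a chitinase (ptg000019l.437) at -1.59 ± 0.45 in the authors' deposited table.

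Of 22 genes of amino acid and one-carbon metabolism, 16 rose and 6 fell. This majority depended on membership, since a list of annotation words gave 10 that rose and 12 that fell. Aspartate aminotransferase (ptg000027l.191), which exchanges amino groups between aspartate and glutamate, rose by 3.02 ± 0.49 in the authors' deposited table, with an adjusted p of 4.78e-07. The alpha subunit of branched-chain keto acid dehydrogenase (ptg000021l.84), which commits branched-chain amino acids to breakdown, rose by 1.36 ± 0.41 (log2 scale) in the authors' deposited table. The neighbouring genes for isovaleryl-CoA dehydrogenase (ptg000016l.134) and methylcrotonoyl-CoA carboxylase (ptg000016l.135), enzymes of later leucine steps, rose by 1.51 ± 0.35 and 1.80 ± 0.28 in the authors' deposited table.

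Serine hydroxymethyltransferase (ptg000015l.470), which takes a carbon unit from serine onto folate, rose by 1.22 ± 0.28, and C-1-tetrahydrofolate synthase (ptg000011l.126), which interconverts these units, by 1.61 ± 0.42 in the authors' deposited table. A gene with the catalytic domain of cobalamin-independent methionine synthase (ptg000002l.554) rose by 1.59 ± 0.32, dimethylglycine oxidase (ptg000010l.316) by 1.18 ± 0.41 and serine ammonia-lyase (ptg000015l.127), which turns serine into pyruvate, by 1.5 ± 0.28 in the authors' deposited table. Pyrroline-5-carboxylate reductase (ptg000015l.200), the last enzyme of proline synthesis, rose by 1.11 ± 0.32 (log2 scale) in the authors' deposited table. Those that fell included cysteine synthase (ptg000009l.873), at -1.53 ± 0.46, glutaminase (ptg000003l.232), at -1.44 ± 0.49, and glutamate decarboxylase (ptg000002l.381), at -1.04 ± 0.35 in the authors' deposited table. The branched-chain dehydrogenase, serine hydroxymethyltransferase, dimethylglycine oxidase, pyrroline-5-carboxylate reductase, glutaminase and glutamate decarboxylase genes were chosen after their values were seen.

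**Figure D3:**
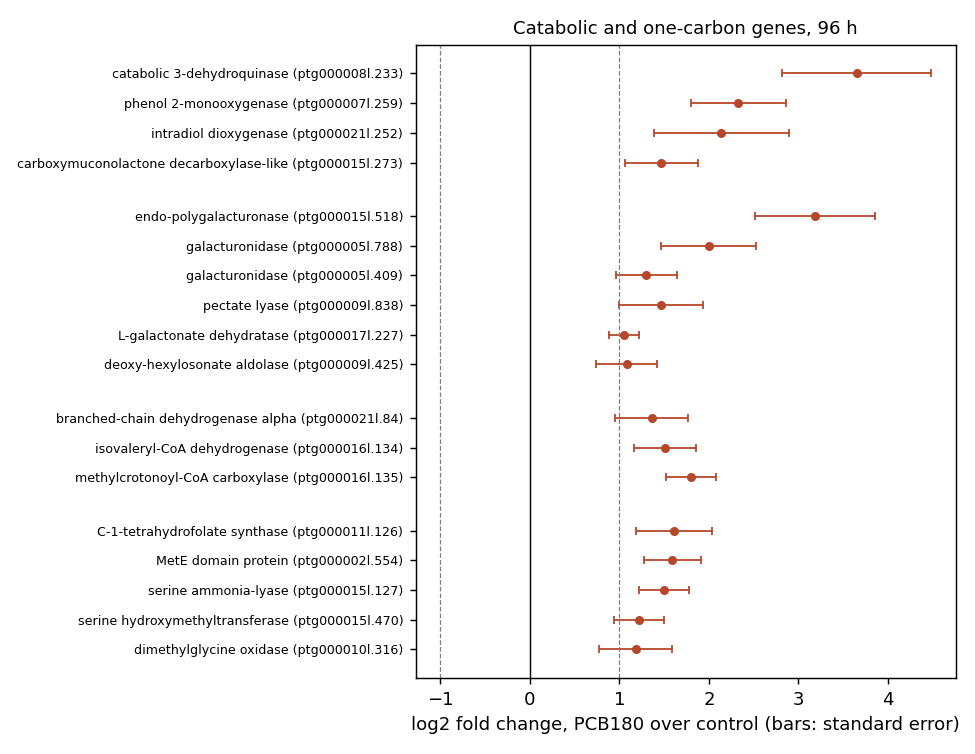
Log2 fold change of PCB180 over control with its standard error (bars) for 18 genes, in blocks from top to bottom for aromatic and quinate breakdown, pectin and galacturonate breakdown, leucine breakdown and one-carbon metabolism; dashed lines mark the fold threshold. The genes plotted are some of those described as rising, from 1.05 for L-galactonate dehydratase to 3.65 for catabolic 3-dehydroquinase, and not whole classes. The last block also holds serine ammonia-lyase.

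Central carbon genes were divided, with 5 that rose and 4 that fell. Both genes annotated as enolase, the glycolytic enzyme that forms phosphoenolpyruvate, fell, ptg000009l.8 by 1.0 ± 0.23 and ptg000003l.683 by 1.11 ± 0.28 (log2 scale) in the authors' deposited table. Pooled over all samples of the series, they had the highest mean normalized counts of the listed genes, 119992 and 64627 in the authors' deposited table. How reads were shared between such similar genes is not given in the sources used here, so their separate values are uncertain. Both genes for pyruvate decarboxylase, which makes acetaldehyde from pyruvate, rose, by 1.66 ± 0.51 (ptg000009l.403) and 1.61 ± 0.44 (ptg000021l.20) in the authors' deposited table. Gluconokinase (ptg000019l.109) rose by 1.95 ± 0.56, and the dihydrolipoamide acetyltransferase part of pyruvate dehydrogenase (ptg000019l.29) by 1.29 ± 0.27 in the authors' deposited table. Mitochondrial genes numbered 5 and 5, among them a HIG1 domain gene (ptg000018l.327) that rose by 2.10 ± 0.65 and an ABC1-type kinase gene (ptg000008l.87) that fell by 1.56 ± 0.37 (log2 scale) in the authors' deposited table.

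Lipid genes went mostly down, with 16 of 22 that fell and a median of -1.19, while a list of annotation words gave 4 that rose and 5 that fell. Phospholipids form membranes, and cells make them from phosphatidate, which is also the source of storage fat. CDP-diacylglycerol-serine phosphatidyltransferase (ptg000006l.230), which makes phosphatidylserine, fell by 1.51 ± 0.26 (log2 scale) in the authors' deposited table, with an adjusted p of 2.43e-06. CDP-diacylglycerol synthase (ptg000009l.774), which makes a substrate of that enzyme, was at -1.12 ± 0.35, and a phosphatidate phosphatase APP1 domain gene (ptg000012l.100) was at -1.24 ± 0.29 in the authors' deposited table. Glycerophosphocholine acyltransferase (ptg000003l.261), which rebuilds phosphatidylcholine, was at -1.48 ± 0.23, and diacylglycerol acyltransferase (ptg000015l.397), which makes storage fat, at -1.08 ± 0.32 in the authors' deposited table. SCS3 (ptg000005l.355), of a family that acts in forming lipid droplets, was at -1.37 ± 0.44 in the authors' deposited table. Each of these was listed as a fall. An acyl-CoA-binding domain gene (ptg000017l.201, 1.64 ± 0.55) and geranylgeranyl pyrophosphate synthetase (ptg000009l.706, 1.35 ± 0.26), an enzyme of isoprenoid synthesis, rose in the authors' deposited table. Of these genes, CDP-diacylglycerol synthase, the phosphatase and the diacylglycerol acyltransferase were chosen after their values were seen.

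Signalling genes had the largest number of falls of the 35 classes, 30 of 39, with a median of -1.18. Among them was phosphoinositide phospholipase C (ptg000008l.73), which cuts a membrane lipid into second messengers, at -1.90 ± 0.53 in the authors' deposited table. A PIPK domain gene (ptg000016l.102), of the kinases that make that lipid, was at -1.45 ± 0.44 in the authors' deposited table. The alpha-3 subunit of a G protein (ptg000009l.558), which relays signals from membrane receptors, was at -1.55 ± 0.40 in the authors' deposited table. Cyclic AMP-dependent protein kinase (ptg000017l.248) was at -1.03 ± 0.22 and a Ras-GAP gene (ptg000012l.274), of proteins that switch Ras off, at -1.60 ± 0.54 in the authors' deposited table. Of these, only the phospholipase was named by the rule for naming genes, and the others were chosen after their values were seen.

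The largest rise with an annotation, however, was also in this class. The gene ptg000021l.85 has more than 1 annotation, AGC/AKT protein kinase and C2H2-type domain protein, and which applies is not settled here. It rose by 3.84 ± 0.69, a 14.3-fold change in the authors' deposited table, with an adjusted p of 9.65e-06. Its number follows that of the branched-chain dehydrogenase gene. Other rises were a RelA/SpoT domain gene (ptg000018l.407, 2.67 ± 0.61), of a family that makes or removes alarmone nucleotides in bacteria, and a protein kinase gene (ptg000027l.189, 2.32 ± 0.36) in the authors' deposited table. With a change of at least 4-fold, all 4 signalling genes left rose. Regulators of the amino acid branch of TOR signalling went both ways. Nitrogen permease regulator 3 (ptg000019l.46), a part of the complex that restrains TORC1 in yeast, rose by 1.92 ± 0.48 and a SEA complex subunit (ptg000005l.226) by 1.19 ± 0.29, while a CASTOR ACT domain gene (ptg000021l.435) fell by 1.85 ± 0.47 (log2 scale) in the authors' deposited table. SEH1 (ptg000017l.139), shared in yeast by the SEA complex and the nuclear pore, fell by 1.02 ± 0.27 in the authors' deposited table. The SEA subunit and SEH1 were chosen after their values were seen.

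**Figure D4:**
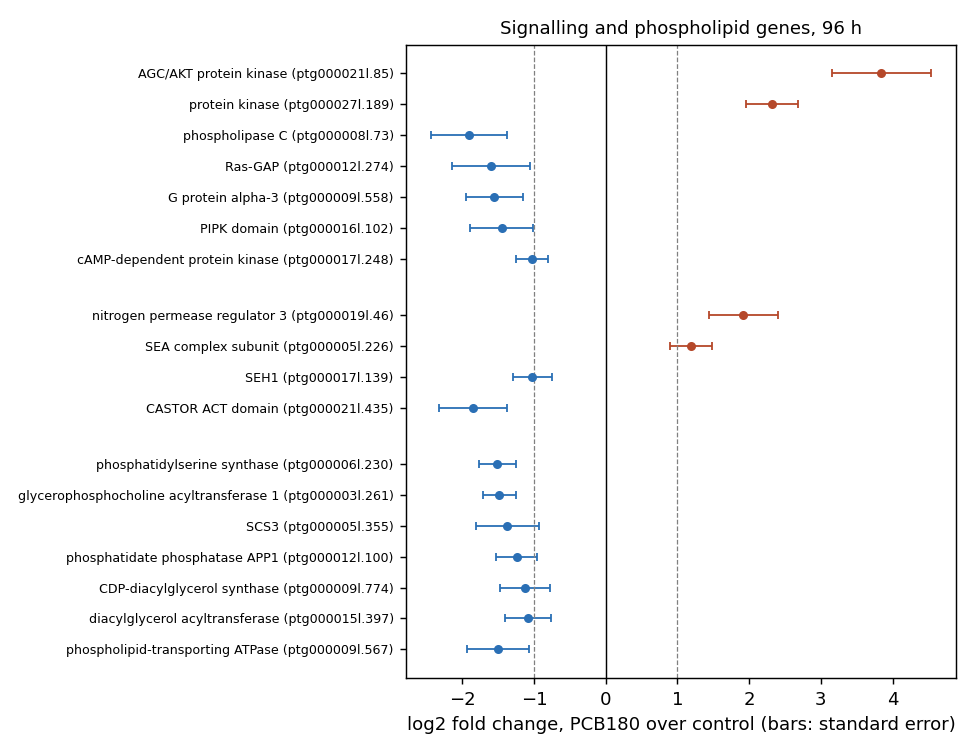
Log2 fold change of PCB180 over control with its standard error (bars) for 18 genes, in blocks from top to bottom for kinases, phosphoinositide and G protein signalling, for amino acid signalling and for phospholipid and membrane lipid genes; dashed lines mark the fold threshold. The genes plotted are some of those described in the text and not whole classes. The 2 genes at the top, each with a protein kinase annotation, rose by 3.84 and 2.32, while of all 10 listed protein kinases 3 rose and 7 fell. All 7 genes of the lipid block fell, while 6 of the 22 genes of the lipid class rose. The last of the block, a phospholipid-transporting ATPase, is classed with transporters.

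Genes of transport divided by family only in the hand sorting of all listed genes. Of 20 major facilitator transporters, which move small molecules across membranes, 16 rose, with a median of 1.29 and a largest rise of 1.88 ± 0.52 (ptg000009l.769) in the authors' deposited table. Of 23 other transporters and channels, 15 fell and 8 rose when sorted by hand, against 9 and 11 in a list of annotation words. At a log2 change of 1.5 or more, 2 of the hand-sorted genes fell and 5 rose. A phospholipid-transporting ATPase (ptg000009l.567), which moves lipids between the leaflets of a membrane, was at -1.5 ± 0.43, a CorA domain gene (ptg000005l.666), of magnesium transporters, at -1.74 ± 0.37 and a DUF221 domain gene (ptg000015l.228) at -2.11 ± 0.34 in the authors' deposited table. Subunit e of the vacuolar proton pump (ptg000027l.49) rose by 1.63 ± 0.57 and a factor for the assembly of that pump (ptg000010l.615) by 1.62 ± 0.56 in the authors' deposited table. All 9 listed genes with a rhodopsin domain, an annotation of proteins with several membrane spans, rose, by 1.01 to 1.84.

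Genes of the cell surface and secretion mostly fell, 12 of 19, though of the 3 that changed by at least 4-fold 2 rose. A cell surface protein gene (ptg000003l.345) fell by 2.19 ± 0.31 on the log2 scale, at an adjusted p of 4.65e-09 and a mean normalized count of 24500.2 in the authors' deposited table. The gene for cerato-platanin (ptg000009l.254), which fungi secrete, was at -1.78 ± 0.50 and a CFEM domain gene (ptg000009l.447), of a fungal surface domain, at -1.77 ± 0.30 in the authors' deposited table. The largest rise here was a secreted protein gene (ptg000015l.370), at 3.46 ± 0.92 in the authors' deposited table. Vesicle traffic and cytoskeleton genes included 8 that rose and 15 that fell, though 3 of the 5 with a log2 change of 1.5 or more rose. They held a reticulon-like gene (ptg000017l.100), of proteins that bend endoplasmic reticulum membrane, at -1.74 ± 0.41 in the authors' deposited table.

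Genes of the ribosome and translation mostly rose, 15 of 17, with a median of 1.74. All 9 genes annotated as ribosomal proteins rose, by 1.0 to 2.48, the highest being bL33m (ptg000021l.537), a protein of the large mitochondrial subunit, at 2.48 ± 0.63 in the authors' deposited table. Counted among them is ptg000015l.603, at 2.08 ± 0.62 in the authors' deposited table. It is annotated both as 40S ribosomal protein S3 and as terpene cyclase PaxB, and which applies is not settled here. Glutamyl-tRNA(Gln) amidotransferase subunit A (ptg000010l.341), which acts in charging a transfer RNA, rose by 2.12 ± 0.52 at a mean normalized count of 15822 in the authors' deposited table. Diphthamide is a modified residue of elongation factor eEF2, and genes for its synthesis rose by 2.06 ± 0.55 (ptg000005l.518), 1.89 ± 0.56 (ptg000015l.380) and 1.81 ± 0.57 (ptg000012l.113) in the authors' deposited table. Deoxyhypusine synthase (ptg000010l.176), which modifies the factor eIF5A, fell by 1.28 ± 0.33 (log2 scale) in the authors' deposited table, and was chosen after its value was seen.

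RNA binding and processing genes rose in 21 of 27 cases, with a median of 1.43. They included a Pcc1 domain gene (ptg000008l.188, 2.28 ± 0.68), of a complex that modifies transfer RNA, and an RNase III domain gene (ptg000019l.4, 2.24 ± 0.56), of enzymes that cut double-stranded RNA in the authors' deposited table. An RRM domain gene (ptg000003l.539), of a common RNA-binding fold, fell by 1.86 ± 0.23 (log2 scale) in the authors' deposited table. Its adjusted p of 2.74e-12 was the smallest in the list, shared with a Zn(2)-C6 transcription factor (ptg000015l.431) that rose by 2.21 ± 0.27 and a DNA helicase (ptg000008l.120) at -1.44 ± 0.18 in the authors' deposited table. Each of the 4 listed subunits of DNA-directed RNA polymerases rose, by 1.24 to 2.17, the most for RPAC2 (ptg000010l.535), which polymerases I and III share. The whole class of RNA polymerase, Mediator and general transcription genes was divided, with 6 that rose and 5 that fell.

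Transcription factors fell in 15 of 24 cases, and a list of annotation words gave 12 that rose and 13 that fell. All 4 genes of the bZIP class fell, with a median of -1.42, while the Zn(2)-C6 class, which is restricted to fungi, had 4 that rose and 6 that fell. The C2H2 class had 4 that rose and 3 that fell, with a median of 1.34. The neighbours ptg000015l.612 (Zn(2)-C6, -1.64 ± 0.36) and ptg000015l.613 (bZIP, -1.66 ± 0.33) fell together in the authors' deposited table. DNA replication, cell cycle and chromatin genes included 15 that rose and 13 that fell, against 13 and 3 in a list of annotation words. Centromere protein S (ptg000008l.414), a kinetochore component, rose by 2.37 ± 0.65 and histone H4 (ptg000007l.243) by 1.97 ± 0.66 in the authors' deposited table. MOB1 (ptg000005l.414), a partner of kinases that act at the exit from mitosis, fell by 1.33 ± 0.19 (log2 scale) in the authors' deposited table, with an adjusted p of 3.46e-09.

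Of 12 genes with heterokaryon incompatibility, NACHT or ankyrin annotations, families in which fungi have proteins for recognising non-self, 10 rose. The neighbours ptg000005l.793, with a NACHT domain, and ptg000005l.794, with a HeLo domain, rose by 1.44 ± 0.36 and 2.32 ± 0.44 in the authors' deposited table. A heterokaryon incompatibility gene (ptg000021l.534) fell by 1.73 ± 0.26 (log2 scale) in the authors' deposited table. Stress, pigment and siderophore genes included 10 that rose and 5 that fell. A dehydrin (ptg000021l.224), of a family that protects cells that lose water, rose by 2.99 ± 0.83, and a gene annotated as stress response protein ish1 (ptg000008l.560) fell by 2.19 ± 0.51 in the authors' deposited table. Transposon-derived genes rose in 9 of 13 cases, F-box, ubiquitin and proteasome genes in 16 of 28 (15 of 22 in a list of annotation words) and peptidase genes in 6 of 12. Without the lowest 25% by count, 10 of the F-box, ubiquitin and proteasome genes rose and 12 fell. Over all annotated genes the share that rose was 57.1%. All 3 listed carboxypeptidase genes, whose products trim proteins from the end, fell, ptg000005l.620 by 1.97 ± 0.38, ptg000027l.510 by 1.54 ± 0.30 and ptg000005l.853 by 1.18 ± 0.24 (log2 scale) in the authors' deposited table.

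Purine, urea and nitrogen genes included 5 that rose and 2 that fell. An (S)-ureidoglycine aminohydrolase domain gene (ptg000017l.123), of an enzyme late in purine breakdown, rose by 1.38 ± 0.35 and nitrilase (ptg000003l.325), which turns nitriles into acids, by 1.51 ± 0.28 in the authors' deposited table. Urea carboxylase (ptg000006l.174), which starts a route of urea breakdown, was at -1.27 ± 0.29 in the authors' deposited table. Among 8 glycosyltransferases 4 rose and 4 fell, and the family 28 gene ptg000005l.85 had the largest fall, at -1.94 ± 0.42 in the authors' deposited table. Esterases, phosphatases and other hydrolases included 8 that rose and 9 that fell, with an acid phosphatase (ptg000017l.327), of enzymes that free phosphate, at -1.90 ± 0.47 in the authors' deposited table. Of 6 MARVEL, SUR7 and Fig1 membrane protein genes 4 fell, of 3 J domain chaperone genes 2 fell, and of 3 genes of oxoglutarate-dependent dioxygenases 2 rose.

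The gene numbers place some listed genes side by side. Runs of consecutive numbers on a contig took in 144 of the 821 genes in 70 runs, of which 36 held only rises and 16 only falls. No count of the runs that random placement would give was made. In the run from ptg000018l.407 to ptg000018l.409, the RelA/SpoT domain gene, an ankyrin repeat gene and a major facilitator transporter rose by 2.67 ± 0.61, 1.72 ± 0.40 and 1.59 ± 0.29 in the authors' deposited table.

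The other congener comparisons at 96 h used the same control samples, so their values are set side by side with no measure of agreement. Listed genes numbered 261 for PCB153, a hexachlorobiphenyl, which is 2.4% of the 10874 genes behind that adjustment, with 1.82% that rose and 0.579% that fell. Of the PCB180 genes, 20.8% were also listed for PCB153, and 65.5% of the PCB153 genes were listed for PCB180. Because the controls are shared, these shares do not measure agreement, and no expected share was worked out. The intradiol dioxygenase was at 2.14 ± 0.75 under PCB180, 4.43 under PCB153 and 3.67 under PCB101, a pentachlorobiphenyl in the authors' deposited table. For phenol 2-monooxygenase the values were 2.33, 3.49 and 2.44 in that order, and for the Zn(2)-C6 gene ptg000015l.431 they were 2.21, 1.91 and 1.41 in the authors' deposited table. The RRM domain gene ptg000003l.539 was listed for all 4 congeners, at -1.86, -1.24 and -1.14 in that order and at -1.10 under PCB52, a tetrachlorobiphenyl in the authors' deposited table. Endo-polygalacturonase, both enolases and phospholipase C were listed for PCB180 and not for PCB153, which does not show that they differed between these congeners. In the authors' direct comparison of PCB180 with PCB153, the 1 row was L-galactonate dehydratase, below that fold threshold, with a level higher under PCB180 by 0.86 ± 0.16 in the authors' deposited table, with an adjusted p of 0.000468. At 24 h the authors listed 2 genes for PCB180, and 0 of them were listed at 96 h.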

How the data were processed

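Per the labels' protocols, TRIzol was used for RNA and a polyA method for libraries. Which aligner, read counter, genome build, annotation and test program were used is not given in the sources used here. Per gene and comparison, the deposited tables give the log2 fold change with a standard error, a test score, p-values before and after adjustment, and a signal, the mean normalized count, per the file headers. On all 821 rows the deposited score equalled log2 fold change divided by standard error, and the p-value was its two-sided normal p. Values per sample were not used here, so no gene was tested anew and no replicate could be left out. Annotations came from a shorter deposited table that covers 620 genes, of which 33 had more than 1 row. Different annotations of a gene were joined.

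The number of genes tested was taken as the whole number at which the ratio of both p-values times that number gives whole ranks for most adjusted p-values (tolerance 0.0001), a method tested on simulated data. Ranks were not whole for 51 of 599 distinct adjusted p-values for PCB180 and 17 of 165 for PCB153. The highest rank, 1158, bounds from below how many genes passed 0.05 whatever their fold. The members, functional classes and lists were chosen with earlier results of these data known. Classes were assigned by hand from the annotation text. Named genes were, per class, all members of classes of up to 8 or the 8 largest by size of change; the 15 largest annotated rises and 15 largest annotated falls; the 10 with the smallest adjusted p; the 10 with the highest mean count; members of runs of 3 or more neighbours; genes listed in another comparison; genes nearest the fold threshold; and 2 unannotated genes per direction. Genes outside this rule are marked in the text. Alternatives were stricter thresholds of adjusted p and fold, omission of low counts or of unannotated genes, word lists in place of the hand-made classes, weighted means in place of medians, and a gap between neighbours. Counts per direction for each class under these settings were added after the class medians had been seen to change sign. Python 3.11.15, pandas 2.3.3, numpy 2.4.6 and matplotlib 3.10.9 were used.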

Additional observations from a re-analysis of the deposited data

Results flagged for a closer look

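L-galactonate dehydratase (ptg000017l.227), an enzyme of galacturonate breakdown, stood out by a difference between congeners that the authors tested directly. It was higher under PCB180 than under PCB153 at 96 h by a log2 fold change of 0.86 in the authors' deposited table. The cause was not tested.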

How the results depend on the processing

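No paired analysis was possible because only tables of comparisons were used, with no values per sample, and leaving out each replicate was not run for the same reason. The 519 genes that rose and 302 that fell became 225 and 159 at an adjusted p under 0.01, 67 and 63 under 0.001, 300 and 75 at a log2 change of 1.5 or more, 129 and 15 at one of 2 or more, and 98 and 32 where the 95% interval lay wholly beyond 1. Without the lowest 25% by count 338 rose and 277 fell, and among annotated genes 354 rose and 266 fell. The share that rose, 63.2%, ran from 51.5% to 89.6% over these 7 settings. With 1 unlisted number allowed between neighbours, runs numbered 114 and held 239 genes, 78 runs in 1 direction. Of 261 class medians under alternatives, 42 changed sign, in 20 of 37 sets. These sets hold rises and falls with nothing between -1 and 1; the cause of each change was not tested. With the 95% interval wholly beyond 1, the values that changed sign were 2.12 for other hydrolases, 0.27 for glutathione and redox, 1.72 for glycoside hydrolases, -1.94 for glycosyltransferases, 1.93 for signalling, 0.11 for peptidases and 0.30 for surface. At a log2 change of 1.5 or more, the values that changed sign were 1.99 for J domain chaperones, 1.65 for MARVEL and similar proteins, 2.02 for other hydrolases, 1.77 for glutathione and redox, 1.70 for mitochondria, 1.62 for other transporters and 1.52 for vesicle traffic. At one of 2 or more, the values that changed sign were 2.04 for other hydrolases, 2.29 for glutathione and redox, 2.50 for signalling, 2.10 for mitochondria, 0.01 for other transporters, 0.06 for peptidases, 2.37 for surface and 2.21 for transcription factors. At an adjusted p under 0.001, the values that changed sign were -0.09 for DNA and chromatin, -1.02 for RNA polymerase and Mediator, 1.14 for other hydrolases, 1.72 for glycoside hydrolases, -1.94 for glycosyltransferases, -1.63 for stress and pigment and -1.37 for transposons. At an adjusted p under 0.01, the values that changed sign were -1.06 for F-box and ubiquitin, -1.0 for central carbon, 1.18 for other hydrolases and -1.26 for glycosyltransferases. As means weighted by inverse squared standard error, the values that changed sign were -0.19 for DNA and chromatin, -0.18 for RNA polymerase and Mediator, -0.12 for central carbon and -0.33 for glycosyltransferases. Without the lowest 25% by count, the values that changed sign were -1.03 for F-box and ubiquitin and -1.04 for glycosyltransferases. With word lists, the values that changed sign were -1.05 for amino acids, 1.0 for mitochondria and 1.14 for other transporters. Depth limits are unknown, since no totals per sample were used.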
